A study of Bos taurus with 4 samples.

Results

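The mitochondrial carrier family was read from the probes whose gene name on the array was SLC25A followed by a number, or UCP1, UCP2 or UCP3. By that rule 44 genes with 88 probes and 99 spots were taken, of 32429 gene names and 51282 probes on the array. The RNA came from Percoll-selected spermatozoa of Murrah buffalo bulls (Bubalus bubalis), and the study asked how sperm transcripts differ between high-fertile (HF) and low-fertile (LF) bulls. The high-fertile group was 2 pools (HF1, HF2) and the low-fertile group 2 pools (LF1, LF2) of breeding bulls classed by field conception rate, each pool combining the RNA of 2 bulls. No treatment was given to either group. The sources used here do not say which bulls went into which pool, so the pool was the replicate. GEO's organism field reads Bos taurus, the species the array was designed on, so that buffalo RNA was measured on cattle probes.

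Mitochondrial carriers are small proteins of the inner mitochondrial membrane, each built of a repeated unit, that exchange nucleotides, phosphate, keto acids, amino acids and cofactors between the mitochondrial matrix and the cytosol. In spermatozoa the mitochondria are wrapped around the midpiece of the flagellum, and the ADP/ATP carriers pass the ATP made there out to the cell in exchange for ADP. The uncoupling proteins (UCP) form a branch of the same family, of which UCP1 lets protons leak back across the membrane to make heat in brown fat.

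The ADP/ATP carriers are close relatives in sequence, so the probes that measured them are shown. The SLC25A4 pair and the SLC25A6 pair are shown because members of a pair overlap, and capitals mark the run of bases that both probes of a pair hold. The overlap was 18 bases for SLC25A4 and 45 bases for SLC25A6. Probes of a gene are numbered by their mean signal over the 4 arrays, with probe 1 the brightest.

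SLC25A4 probe 1: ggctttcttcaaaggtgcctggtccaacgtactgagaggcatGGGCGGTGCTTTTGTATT
SLC25A4 probe 2: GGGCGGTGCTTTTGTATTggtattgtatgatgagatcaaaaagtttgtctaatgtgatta
SLC25A6 probe 1: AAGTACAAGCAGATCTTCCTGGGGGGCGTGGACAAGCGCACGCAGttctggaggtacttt
SLC25A6 probe 2: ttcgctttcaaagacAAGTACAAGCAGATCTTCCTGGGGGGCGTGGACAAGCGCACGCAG

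A second set is shown because it carries the repeat that defines the family. Each probe was translated in its 3 reading frames and, in frames without a stop, searched for a pattern of the carrier repeat: an acidic residue and a glycine, 4 residues of any kind, an aromatic residue, a basic residue or glutamine, and a glycine. The pattern was in 4 of the 88 carrier probes and in 14 of all 51282 probes (0.0273%). Capitals mark the bases that code for it. A second pattern, from the proline of the repeat to its basic residues, was in 1 carrier probe (SLC25A13 probe 3) and in 0.183% of all probes.

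SLC25A5 probe 1: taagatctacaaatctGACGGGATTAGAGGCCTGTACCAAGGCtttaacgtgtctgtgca
SLC25A6 probe 3: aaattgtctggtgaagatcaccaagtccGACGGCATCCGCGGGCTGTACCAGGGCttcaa
SLC25A11 probe 2: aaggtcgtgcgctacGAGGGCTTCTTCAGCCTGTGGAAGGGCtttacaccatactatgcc
SLC25A21 probe 1: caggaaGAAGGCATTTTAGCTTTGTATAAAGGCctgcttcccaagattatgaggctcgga

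Probes of different ADP/ATP carriers were alike in part. In the best alignment without gaps over at least 30 bases, SLC25A4 probe 2 matched the probe of SLC25A31 at 30 of 36 bases (83.3%), and SLC25A5 probe 1 matched SLC25A6 probe 3 at 36 of 48 bases (75%). The deposited positions, in the cattle build Btau_3.1, also cross between these genes. SLC25A6 probe 1 was placed at chr27:16805934-16805993, 902 bases before the nearest SLC25A4 probe, although RefSeq (ARS-UCD2.0) has these genes on different chromosomes. All 3 SLC25A5 probes were placed on chromosome 12, which is not the chromosome RefSeq gives for SLC25A5. Of 79 carrier probes with a chromosome in both sources, these were the 4 that differed, and 75 had the same chromosome. How far relatives of a gene added to its signal was not tested.

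The 4 arrays differed in how much they detected. A probe is called detected on an array where the scanner software marked it well above background. This held for 23271 probes on HF1, 23228 on HF2, 25642 on LF1 and 13033 on LF2, so that LF2 stood apart from the other arrays. Of the 88 carrier probes, 40, 43, 45 and 13 were detected. Log2 levels below are the signal relative to the 75th percentile of the array, which lay at a linear intensity of 36.7, 37.1, 37.0 and 32.7. All 4 arrays came from 1 slide, with the HF arrays in the first row and the LF arrays in the second row, so that row and group cannot be told apart. Of 14 sperm markers, AKAP4 and LDHC were not detected on any array, and PRM2, PRM3, TNP2 and SPATA18 on 1 array each. Their summed linear level, relative to the 75th percentile, was 21.7 and 17.4 on the HF arrays and 22.0 and 18.2 on the LF arrays. Of 8 tested, the protamine PRM1 was higher in LF by 0.67 (adjusted p = 0.0231). The acrosomal ACRV1 was lower by 0.69 (log2 difference -0.69, adjusted p = 0.0306), and the others did not pass. The summed linear level of 10 leukocyte markers was 600 and 566 times the 75th percentile on the HF arrays and 790 and 869 on the LF arrays. LYZ and PTPRC made up most of each sum. PTPRC was higher in LF by 0.78 (adjusted p = 0.016), the only call among 9 tested. LYZ did not pass (0.38, adjusted p = 0.117), and CD3E was not detected anywhere. The summed level of 6 epithelial markers was 22.8 to 27.0, with EPCAM and CDH1 not detected. The part of other cells in the carrier results was not tested. In bulk RNA, fewer cells of a type and less RNA per cell cannot be told apart.

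A gene was tested where a probe was detected on both HF arrays or on both LF arrays, and 24 of the 44 carriers met this, with 35 of the 88 probes. Of these 35 probes, 13 were detected on all 4 arrays. The other 22 entered through the HF arrays, 18 of them detected on LF1 but not LF2 and 4 on neither LF array, and none entered through the LF arrays alone. A probe that entered only because HF was high could more easily be lower than higher in LF. Fold changes are LF minus HF on the log2 scale with their standard error (SE), from limma fitted over all 21033 tested probes, and a call is an adjusted p under 0.05. With 2 pools a group, the smallest p that an exact permutation test of 1 gene can give is 0.333, and precision is limited by the number of arrays.

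Read from its brightest probe, 5 carriers were lower in LF (SLC25A4, SLC25A16, SLC25A27, SLC25A30 and SLC25A33), 2 were higher (SLC25A6 and SLC25A11), and 16 tested carriers did not pass. Over all 16549 genes tested the same way, 25.9% were called, 16.3% lower and 9.6% higher, which for 23 carriers is close to what was counted. The median log2 fold change of the 23 carriers was -0.18, beside 0.01 for all genes tested. Read over every tested probe, 9 carrier probes in 7 genes were lower, which adds SLC25A5 and UCP3, and 3 probes in 2 genes were higher. Among all tested probes 17.6% were lower and 9.22% higher.

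The carriers detected on all 4 arrays and the others were counted apart. Of 11 carriers whose brightest probe was detected on all 4 arrays, 0 were lower and 2 higher, with a median of 0.26. For all genes so detected the median was 0.15, with 9.32% lower and 13.2% higher. Of the 12 tested carriers not detected on all 4 arrays, 5 were lower and 0 higher, with a median of -0.40. Over all 5961 tested genes of this kind, 28.7% were lower and 3.22% higher, with a median of -0.32. All 9 lower probes were not detected on LF2, and 6 of them were detected on LF1. All 3 higher probes were detected on all 4 arrays. The plot of levels by array shows both sets.

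**Figure D1:**
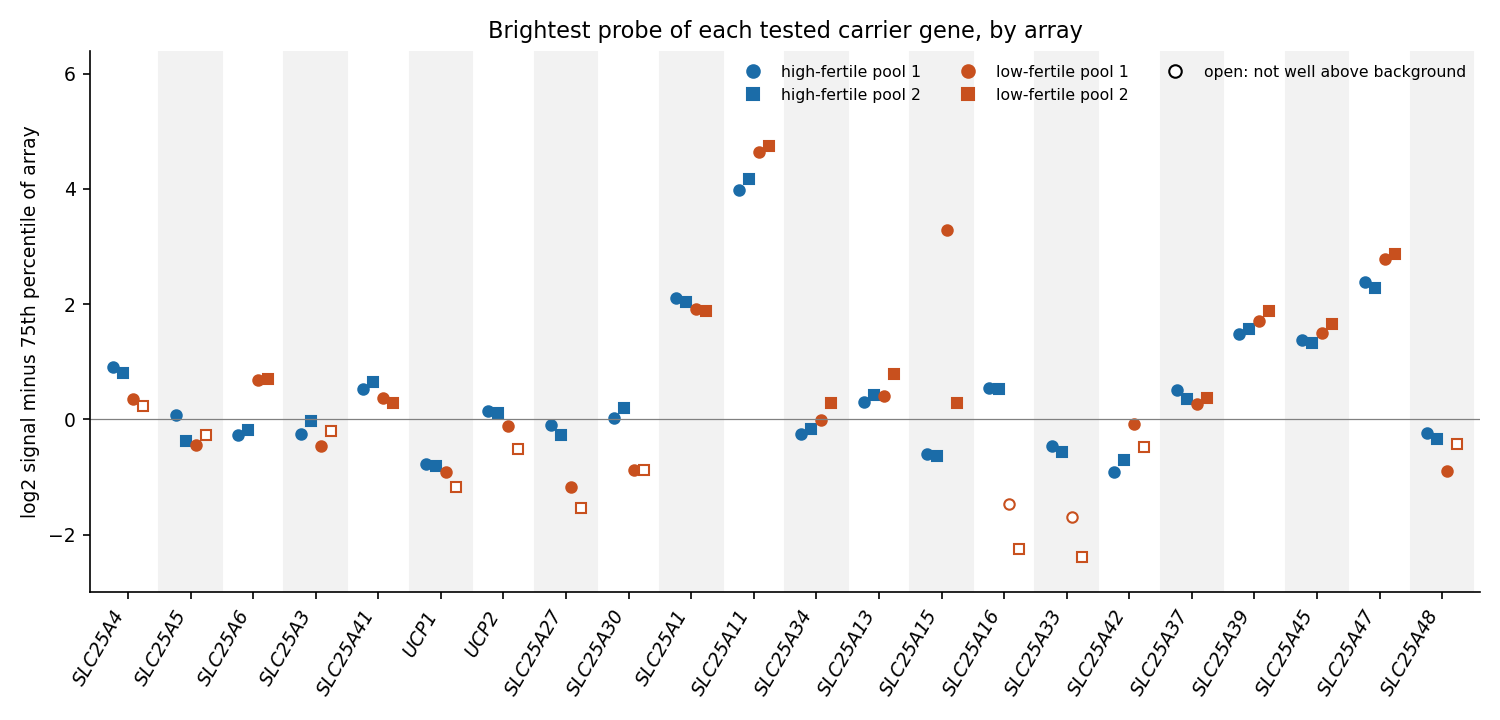
Log2 signal minus the 75th percentile of the array (y axis) for the brightest probe of 22 carrier genes so tested (x axis, ordered by role), with 1 point for each of the 4 arrays. Open symbols are arrays on which the probe was not detected. The LF and HF points are apart for all genes shown but SLC25A3, SLC25A5, SLC25A13 and SLC25A37. Examples are SLC25A16 and SLC25A33, with LF below, and SLC25A6 and SLC25A11, with LF above. How often the groups are apart over all genes was not counted. SLC25A15 has 1 LF point at 3.28.

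Among the 4 ADP/ATP carriers, SLC25A4 was lower in LF, SLC25A6 was higher, SLC25A5 was lower at 2 of 3 probes, and SLC25A31 was not tested. SLC25A4 encodes the ADP/ATP carrier of heart and muscle. Its probe 1 (chr27:16807843-16807902) read 0.90 on HF1, 0.81 on HF2, 0.36 on LF1 and 0.23 on LF2. Both LF arrays lay below both HF arrays, LF2 not detected, and the gene fell by 0.56 (log2 difference -0.56, SE 0.147, adjusted p = 0.0422). Probe 2 (chr27:16807885-16807944), which shares 18 bases with probe 1, read 0.42 and 0.40 on the HF arrays and -0.56 and -0.64 on the LF arrays. The groups were apart there too, and the change was -1.01 (SE 0.141, adjusted p = 0.00694). Probe 3 was detected on HF2 alone and probe 4 on no array. The call on probe 1 was lost when any 1 array was left out, with adjusted p from 0.0643 to 0.168, and probe 2 kept its call in 13 of 15 alternative settings. With spike-in scaling probe 1 was at -0.94 (adjusted p = 0.0143).

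SLC25A6, the ADP/ATP carrier of most other tissues in cattle and humans, went the other way. Probe 1 read -0.27 on HF1, -0.19 on HF2, 0.68 on LF1 and 0.69 on LF2, detected on all 4 arrays. The LF arrays lay above the HF arrays by more than either pair was spread, and the gene rose by 0.92 (SE 0.141, adjusted p = 0.00884). Probe 2, which shares 45 bases with probe 1 and so is not an independent reading, read -0.16, -0.18, 0.39 and 0.70 and rose by 0.71 (SE 0.167, adjusted p = 0.0307). Probe 3, elsewhere in the transcript, read -0.65 and -0.52 on the HF arrays and -0.28 and -0.40 on the LF arrays. The groups did not overlap at probe 3, but the difference of 0.24 did not pass (SE 0.149, adjusted p = 0.276). Probe 4 was detected on no array. Without HF1 the difference of probe 1 was 0.88 (adjusted p = 0.0534), and with scaling on spike-in probes it was 0.53 (adjusted p = 0.0376).

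SLC25A5, the ADP/ATP carrier of dividing cells, gave readings that differed between its probes. Probe 1 (chr12:24392208-24392267) read 0.07 and -0.37 on the HF arrays and -0.44 and -0.26 on the LF arrays. The groups overlapped and the difference was -0.20 (SE 0.199, adjusted p = 0.49). Probes 2 and 3 lie near chr12:24392746-24392805, share 56 bases and are nearly 1 reading. Probe 2 read 0.05, 0.20, -1.18 and -2.27 and changed by -1.85 (SE 0.360, adjusted p = 0.0177). Probe 3 read 0.05, -0.40, -1.15 and -1.72 and changed by -1.26 (SE 0.258, adjusted p = 0.0209). At both, the LF arrays lay below the HF arrays and LF2 was not detected. The call was lost without HF1 at both probes, without HF2 at probe 2 and without LF2 at probe 3. SLC25A31, the ADP/ATP carrier found in testis and sperm flagella, read -1.06, -0.73, -0.58 and -1.06, was detected on HF2 and LF1 only, and its groups overlapped.

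**Figure D2:**
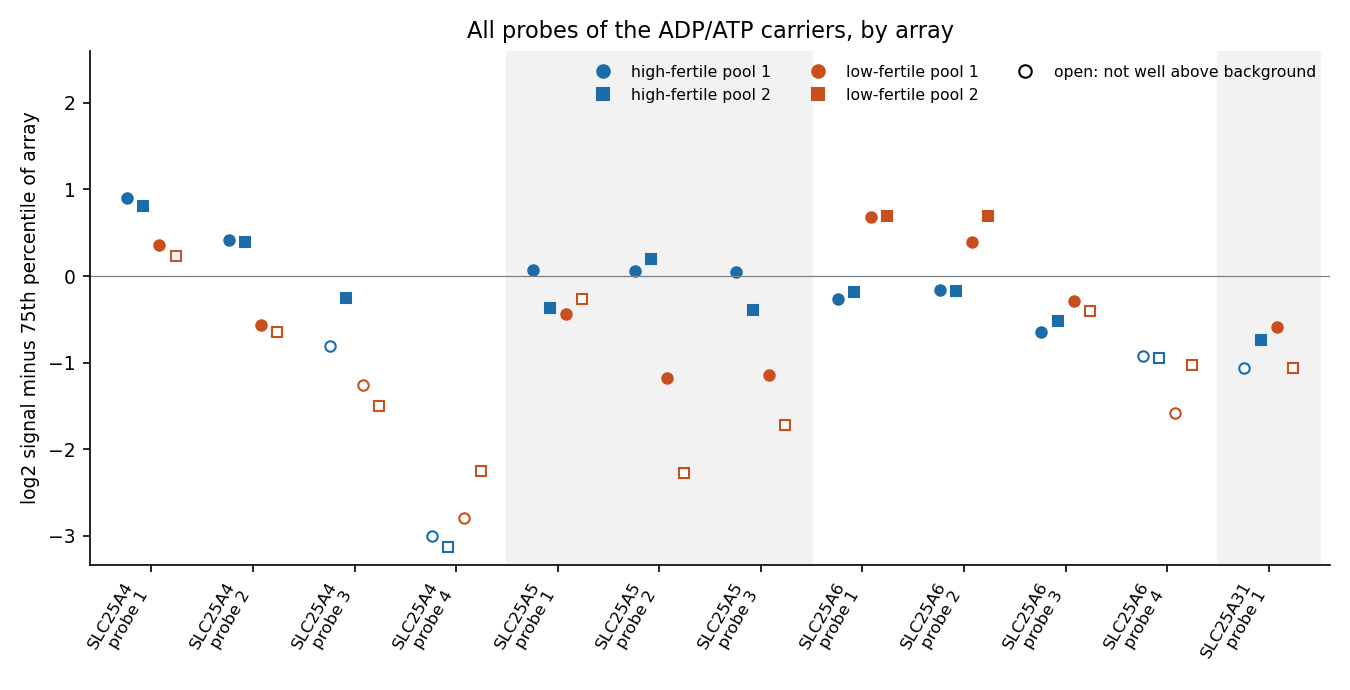
Log2 signal minus the 75th percentile of the array (y axis) for all 12 probes of the 4 ADP/ATP carrier genes (x axis, grouped by gene, probe 1 the brightest), with 1 point for each array. Open symbols are arrays on which the probe was not detected. SLC25A4 probes 1 and 2 and SLC25A5 probes 2 and 3 are lower on the LF arrays, and SLC25A6 probes 1 and 2 are higher.

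Read from the brightest probe, the uncoupling protein branch held 2 lower genes among 4 tested, and none higher. Read over every tested probe it held 3 lower among 5, with UCP3 added. All 5 tested probes of the branch entered the test through the HF arrays and were not detected on LF2, so that the filter itself favoured lower values. Of all tested genes not detected on all 4 arrays, 28.7% were lower and 3.22% higher by the brightest probe. SLC25A27, also named UCP4 and best known from brain, read -0.10 on HF1, -0.27 on HF2, -1.18 on LF1 and -1.54 on LF2. Both LF arrays lay below both HF arrays, LF2 not detected, and the gene fell by 1.18 (log2 difference -1.18, SE 0.184, adjusted p = 0.00939). The 2 spots of this probe differed by 0.20 and 0.23 on the HF arrays and by 0.76 and 1.31 on the LF arrays. Without HF1 the difference was -1.09 (adjusted p = 0.0514), and in the deposited table it was -0.997 (adjusted p = 0.0566). SLC25A30, a relative first described in kidney, was read by probe 1, which joins sequence from chr12:14539951-14540678. It read 0.03 and 0.21 on the HF arrays and -0.89 and -0.87 on the LF arrays and fell by 0.995 (log2 difference -0.995, SE 0.149, adjusted p = 0.00824). The groups were apart, with LF1 detected and LF2 not. Without HF2 the difference was -0.91 (adjusted p = 0.0518).

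UCP3, the uncoupling protein of skeletal muscle, was read by probes that differed. Probe 2 (chr15:53104306-53104365) read -0.40 on HF1, -0.88 on HF2, -2.59 on LF1 and -2.35 on LF2. It was detected on both HF arrays and on neither LF array, and fell by 1.83 (log2 difference -1.83, SE 0.212, adjusted p = 0.00428). On LF2 a probe at 0.23 (SLC25A4 probe 1) was not detected, which is above both HF readings of UCP3 probe 2. With neither LF array detected, the size of the UCP3 fall is uncertain and no bound is given. Probe 1, with the higher mean over the arrays, was detected on LF1 alone and was not tested, at -1.52, -1.13, -0.75 and -1.50. UCP2, expressed in many tissues, read 0.14, 0.12, -0.11 and -0.51, with a difference of -0.44 that did not pass (SE 0.182, adjusted p = 0.13). UCP1 read -0.78, -0.81, -0.92 and -1.18, with a difference of -0.25 (SE 0.159, adjusted p = 0.286). Of 3 brown fat markers, CIDEA was at 0.0012 (adjusted p = 0.996) and DIO2 at 0.11 (adjusted p = 0.639), while PPARGC1A, a coactivator of mitochondrial genes, was lower in LF at -0.88 (adjusted p = 0.0191). SLC25A14, a brain relative, was not detected on any array.

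Of 7 cofactor and nucleotide carriers, 4 were tested and 2 were lower. None of the 4 was detected on all 4 arrays, and of all tested genes of that kind 28.7% were lower. SLC25A16, linked to coenzyme A in mitochondria, was lower in LF. It was read by 1 probe (chr28:24100348-24100407) at 0.55 on HF1, 0.52 on HF2, -1.46 on LF1 and -2.26 on LF2. The HF arrays were close together and detected, and neither LF array was. The fitted difference was -2.40 (SE 0.277, adjusted p = 0.00425), its size uncertain because neither LF array was detected. SLC25A33, a pyrimidine nucleotide carrier, read -0.47 and -0.58 on the HF arrays and -1.70 and -2.40 on the LF arrays at chr16:40976887-40976946. Neither LF array was detected, and the fitted fall of SLC25A33 was 1.53 (log2 difference -1.53, SE 0.254, adjusted p = 0.0111), its size also uncertain. Leaving out LF2 gave -2.001 for SLC25A16 and -1.18 for SLC25A33, both called. Without HF1 the SLC25A33 call was lost (adjusted p = 0.0532).

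SLC25A42, a coenzyme A carrier, read -0.91, -0.70, -0.09 and -0.48. Its LF arrays lay above its HF arrays, and the difference of 0.52 did not pass (SE 0.193, adjusted p = 0.0998). The 2 spots of this probe differed by 1.49 on HF1, and in the deposited table the difference was 0.14 (adjusted p = 0.703). SLC25A26, the S-adenosylmethionine carrier, was detected on HF2 and LF1 at its brightest probe. SLC25A17, the peroxisomal member, and SLC25A36, a pyrimidine nucleotide carrier, were not detected on any array.

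Of 5 carriers of di- and tricarboxylates and keto acids, 3 were tested and 1 was higher. All 3 were detected on all 4 arrays, where 13.2% of all genes were higher. SLC25A11, the oxoglutarate carrier of the malate-aspartate shuttle, read 3.99 on HF1, 4.18 on HF2, 4.64 on LF1 and 4.74 on LF2 at probe 1 (chr19:26832481-26832540). The LF arrays lay above the HF arrays, with all 4 arrays detected, and the gene rose by 0.61 (SE 0.153, adjusted p = 0.0376). Probe 2 of the gene (chr19:26831945-26832004), the one with the family repeat shown above, read -0.10, -0.75, 0.06 and -0.33, and its groups overlapped with a difference of 0.29 (SE 0.267, adjusted p = 0.453). The call on probe 1 was lost when any 1 array was left out, with adjusted p from 0.0656 to 0.164, and under spike-in scaling the difference was 0.23 (adjusted p = 0.243). SLC25A1, the citrate carrier, read 2.11, 2.04, 1.91 and 1.89, a narrow separation that did not pass (-0.18, SE 0.140, adjusted p = 0.388). Its probe 2, detected on LF1 alone and not tested, read -1.20, -2.18, -0.82 and -0.96, with the LF arrays higher. SLC25A34, whose substrate is not settled, read -0.26, -0.17, -0.00 and 0.29 at probe 1 with a difference of 0.36 (SE 0.167, adjusted p = 0.167) and gave -0.09 at probe 2 (adjusted p = 0.69). SLC25A21, the oxoadipate carrier, and SLC25A35 were not detected on any array.

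The amino acid carriers gave no call. SLC25A13, the aspartate-glutamate carrier citrin, read 0.29, 0.42, 0.40 and 0.79 at probe 1, with overlapping groups and a difference of 0.24 (SE 0.185, adjusted p = 0.378). Its relative SLC25A12 and the glutamate carrier SLC25A22 were not detected on any array. Neither were SLC25A2, an ornithine carrier, and SLC25A29, a basic amino acid carrier. SLC25A38, the glycine carrier, was detected on HF2 and LF1, and SLC25A44, of branched-chain amino acids, on the same arrays at its brightest probe.

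SLC25A15, the ornithine carrier of the urea cycle, turned on 1 spot. Its probe 1 (chr12:21216327-21216386) read -0.59 on HF1, -0.63 on HF2, 3.28 on LF1 and 0.29 on LF2, and the difference of 2.40 did not pass (SE 0.912, adjusted p = 0.107). On LF1 the spot lay on a bright patch of the array, where 3 of the 6 nearest spots, with probes of other genes, were also over 2 log2 units above their median on the other arrays. With spots on such patches left out, which removes the only LF1 spot of this probe, the difference was 0.91. Without LF1 it was 0.90, so that both set LF2 alone against the HF arrays. Without LF2 the difference was 3.90. Probe 2 was detected on HF1 alone, at -0.61, -1.40, -1.33 and -1.78, and its groups overlapped.

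SLC25A3, the phosphate carrier that supplies ATP synthase, read -0.25, -0.03, -0.46 and -0.20 at probe 1, with overlapping groups and a difference of -0.19 (SE 0.173, adjusted p = 0.447). Its other probes were not detected. Among the ATP-Mg/phosphate carriers, SLC25A41 was detected on all 4 arrays at 0.52, 0.65, 0.37 and 0.29, and its difference of -0.25 did not pass (SE 0.146, adjusted p = 0.242). SLC25A25 was detected on LF1 alone, and SLC25A24 on no array at any of 4 probes. SLC25A20, the carnitine carrier of fatty acid oxidation, was detected on HF1 alone.

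The iron and glutathione carriers gave no call, with 1 gene of each pair tested. SLC25A37, the iron carrier mitoferrin of red cell precursors, read 0.51, 0.35, 0.27 and 0.38 at probe 1, where the groups overlapped (-0.10, SE 0.150, adjusted p = 0.631). Of its 2 spots on LF2, 1 lay on a bright patch, and with such spots left out the difference was -0.30 (adjusted p = 0.232). Probes 2 and 3, whose accession now belongs to another locus in RefSeq, gave -0.39 and -0.25 (adjusted p = 0.249 and 0.308). The summed level of 7 red cell markers overlapped between the groups, at 6.57 and 10.1 on the HF arrays and 8.57 and 9.26 on the LF arrays. Among them HBB was higher in LF by 1.24 (adjusted p = 0.0118), HBA was at -0.17 (adjusted p = 0.705), and ALAS2, an enzyme of heme synthesis in these cells, stayed undetected. The second iron carrier, SLC25A28, was detected on LF1 alone. SLC25A39, a glutathione carrier, read 1.49, 1.57, 1.70 and 1.88 at probe 1, a separation of 0.26 that did not pass (SE 0.151, adjusted p = 0.249), and 0.23 at probe 2 with overlapping groups (adjusted p = 0.616). SLC25A40, its relative, was not detected on any array.

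Of 4 members for which no substrate is given here, SLC25A47, a liver member, came nearest to a call. It read 2.39 on HF1, 2.29 on HF2, 2.78 on LF1 and 2.87 on LF2, detected on all 4 arrays. The groups were apart, but the difference of 0.48 did not pass (SE 0.145, adjusted p = 0.0594). It passed in 5 of 17 alternative settings, with the lowest adjusted p of 0.011 under normexp. SLC25A45 read 1.38, 1.33, 1.497 and 1.66, with a difference of 0.22 (SE 0.148, adjusted p = 0.304). SLC25A48 gave -0.36 at probe 1 (adjusted p = 0.231) and -0.66 at probe 2, which did not pass either (adjusted p = 0.106). Probe 2 was detected on neither LF array. SLC25A43 and SLC25A46, a member of the outer membrane, were not detected on any array.

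**Figure D3:**
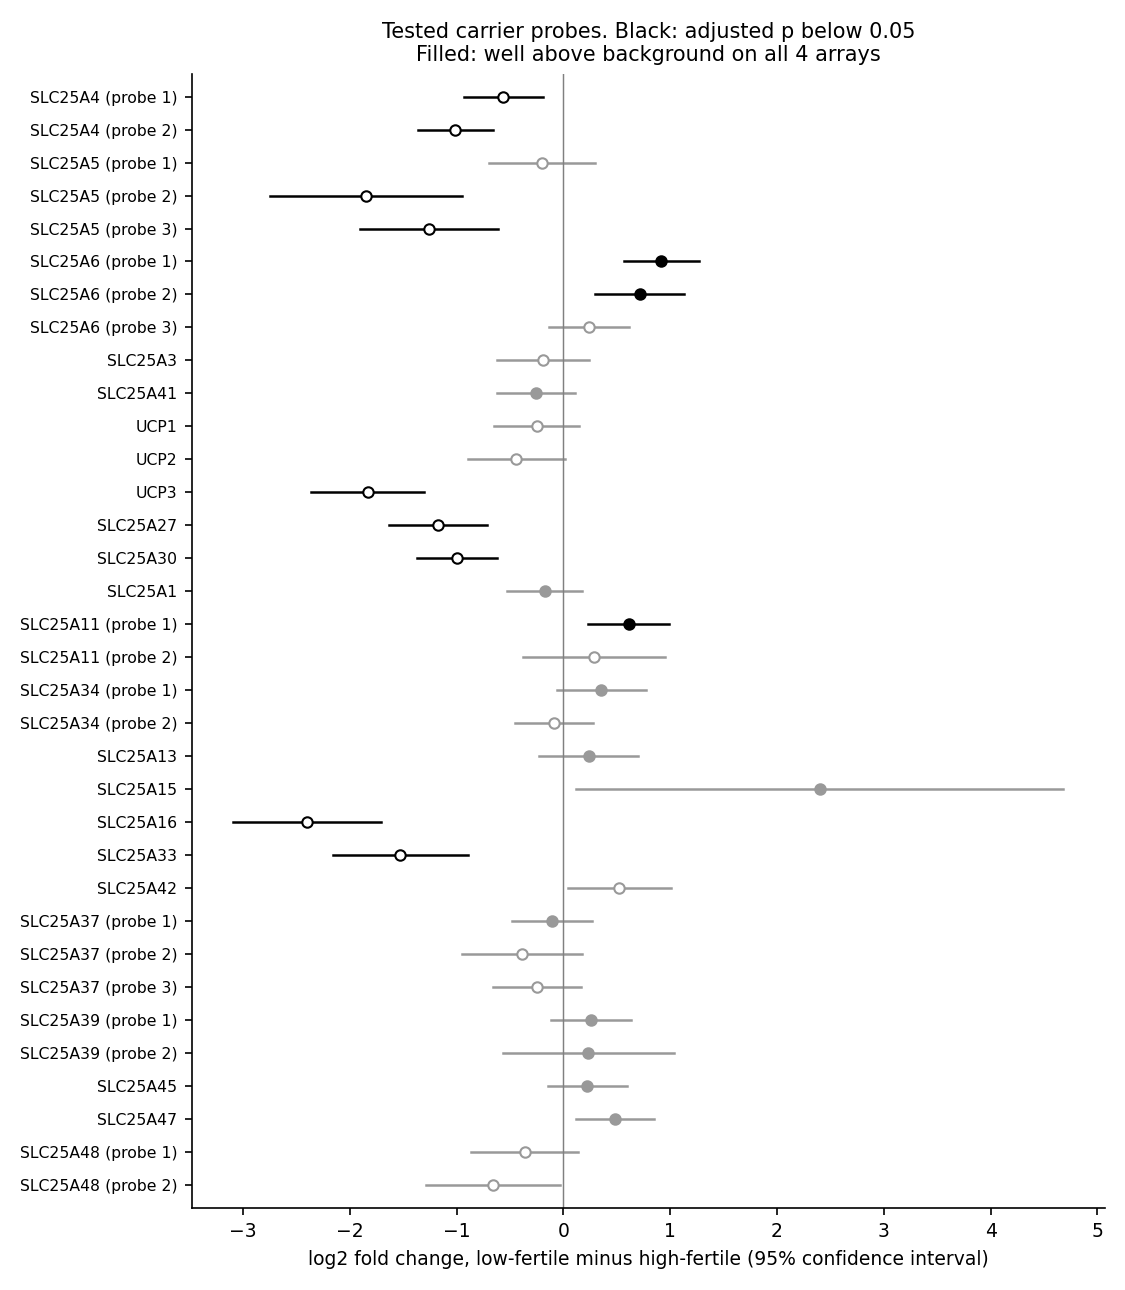
Log2 fold change, LF minus HF (x axis), with its 95% confidence interval from limma for 34 tested carrier probes (y axis, ordered by role). Black marks an adjusted p under 0.05 and a filled point a probe detected on all 4 arrays. The 9 lower probes in black are all open and the 3 higher ones all filled.

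In all, 20 carriers with 33 probes had no tested probe, of which 13 were not detected on any array and 7 on some but on no complete group. Their mean log2 levels over the 4 arrays ran from -3.18 to -0.59. For these genes a difference was not detectable here. A further 20 probes of tested genes were not tested, 11 of them detected on no array.

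The partner proteins of the carriers were taken as a list of 35 names: porins, import factors, carnitine and malate-aspartate shuttle enzymes, mitochondrial carrier homologs, sideroflexins and related inner membrane proteins. Of these, 31 were on the array, 22 were tested, 6 were lower, 0 were higher, and the median was -0.33, beside 16.3% lower, 9.6% higher and a median of 0.01 for all genes tested. Lower members included GOT2, the aspartate aminotransferase of the malate-aspartate shuttle, at -1.60 (SE 0.212, adjusted p = 0.00601), which was detected on all 4 arrays. MTCH1, a carrier homolog of the outer membrane, was lower at -1.37 (SE 0.187, adjusted p = 0.00649). TIMM9 and TIMM10, which chaperone carriers across the intermembrane space, were lower at -2.01 (adjusted p = 0.00597) and -0.61 (adjusted p = 0.0389). SFXN1, a serine carrier, was at -1.57 (adjusted p = 0.0122) and SFXN4 at -0.86 (adjusted p = 0.0109). In the shuttle to which SLC25A11 belongs, MDH2 was at -0.51 (adjusted p = 0.0574) and MDH1 at -0.39 (adjusted p = 0.0904), neither past the threshold. LETM1, an ion exchanger of the inner membrane, was at 0.49 (adjusted p = 0.0846) and CPT1A, of fatty acid entry, at 0.62 (adjusted p = 0.166), also not past it. Among the 11 partners detected on all 4 arrays, 3 were lower (GOT2, MTCH1 and TIMM10), beside 9.32% of all genes so detected. The other lower partners, TIMM9, SFXN1 and SFXN4, were not detected on all 4 arrays. Of all tested genes of that kind 28.7% were lower. The difference between the lists was not tested.

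The calls moved with the processing to different degrees. SLC25A16 kept its call in 14 of 16 alternative settings, UCP3 probe 2 in 13 of 15, SLC25A6 in 14 of 17, SLC25A30 and SLC25A33 in 13 of 16, SLC25A27 in 12 of 16, SLC25A4 in 8 of 16 and SLC25A11 in 7 of 17. With normexp background correction, which adds an offset of 50 to signals of this size, the 5 lower genes changed by -0.23 to -0.68 and were all called.

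**Figure D4:**
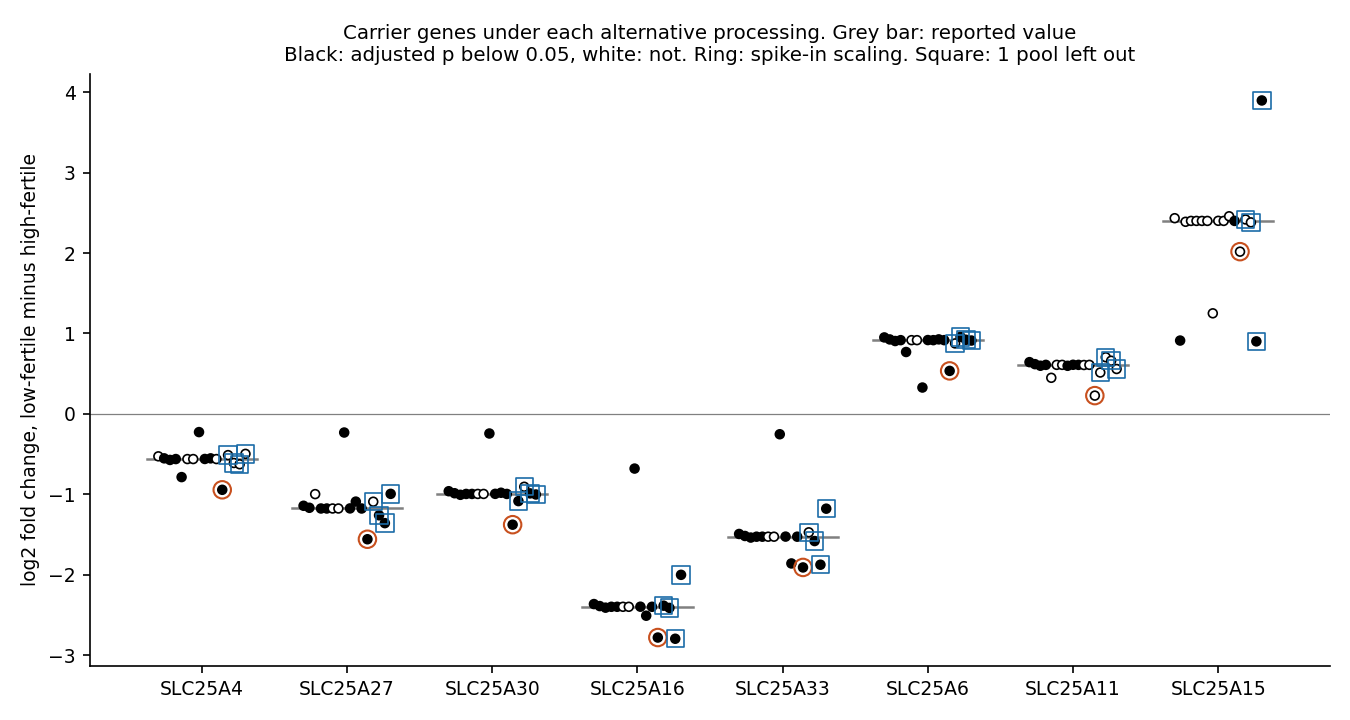
Log2 fold change, LF minus HF (y axis), of the 7 carrier genes called from the brightest probe and of SLC25A15 (x axis) under each alternative setting, with 1 point per setting and the reported value as a grey bar. Black points have an adjusted p under 0.05, rings mark spike-in scaling and squares the settings that leave out 1 pool. No point of the 7 called genes crosses 0, and SLC25A15 ranges from 0.90 to 3.90.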

How the data were processed

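Sperm RNA of 4 pools was hybridised to 1-colour cattle arrays. The authors extracted the images with Agilent Feature Extraction 11.5.1.1. The deposited scanner output holds linear intensity values with the background subtracted. A table deposited beside it gives log2 values, shifted by the authors to each array's 75th percentile. From the scanner output, spots marked as outliers were dropped, log2 spots were averaged per probe, and each array was centred on its 75th percentile of non-control probes. A mark applied to a probe if at least 0.5 of its spots had it. No probe was saturated. The 21033 probes marked well above background on both HF or both LF arrays were fitted with limma 3.58.1 (R 4.3.3), with Benjamini-Hochberg adjustment over all of them. The fit was tested on simulated data. Other steps used Python 3.11.15, pandas 2.3.3 and numpy 2.4.6.

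The brightest probe stood for a gene, with its other tested probes given beside it. Members were named, except 1 that is counted but not reported here, with values for those detected on all 4 arrays or called. Positions are Btau_3.1 as deposited. Of the 88 probe accessions, 78 matched RefSeq, 76 with the same symbol. Pool numbers did not pair the samples (correlation of deviations 0.0055 over 21024 probes). Members, lists and settings were chosen with earlier results of these data known. Nothing says that the pools were processed apart, so p-values measure the spread between these pools. The alternatives were other scalings, background corrections, filters and tests, and leaving out each pool.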

Additional observations from a re-analysis of the deposited data

Results flagged for a closer look

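For SLC25A15, a signal lay outside the measured probe itself: on LF1, 3 of the 6 spots nearest to its brightest probe were raised by over 2 log2 units above their median on the other arrays, and none of the 6 holds a carrier probe. On HF1, HF2 and LF2 the count was 0. Of the other carrier probes, SLC25A37 probe 1 had 1 of its 2 spots on such a patch, on LF2.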

How the results depend on the processing

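The main values were 5 lower and 2 higher carriers, a median of -0.18 and 24 detected genes. With spike-in scaling, where the median over all probes was -0.39, there were 11 lower and 1 higher and the median was -0.56, with 7491 of all 21033 probes called. With no filter on dim probes there were 0 lower and 0 higher in limma (median -0.018) and 0 calls among all 51282 probes, where 6 of 44 genes had an unadjusted p below 0.05. The methods' t-test gave 0 lower and 0 higher after Benjamini-Hochberg and 0 calls among all 21024 probes, where 9 of 23 genes had one. With the test kept to probes detected on all 4 arrays there were 0 lower and 3 higher, SLC25A47 added (median 0.26), and 11 detected genes. Normexp gave a median of -0.029, the median over a gene's tested probes 7 lower and 1 higher (SLC25A5 added at -1.27, adjusted p = 0.0177), and the positive and significant mark 40 detected genes. Leaving out 1 pool gave 2 to 4 lower, 0 to 2 higher, a median from -0.18 to -0.027 and 24 to 30 detected genes, with the fewest calls without HF1 (2 lower, 0 higher) and then HF2 (3 lower, 1 higher). Over the whole array these fits called 2640 to 4989 probes, fewest without HF2 and HF1, against 3692 lower and 1940 higher with all pools. The detected count without a pool asked for the 1 remaining array of its group alone, a looser rule, so that it could not fall. With a replicate block there were 4 lower and 2 higher. SLC25A4 (adjusted p = 0.0644) and SLC25A11 (adjusted p = 0.0518) lost their calls under the block, and SLC25A15 gained one (adjusted p = 0.0374). Some differences that had not passed changed sign. With spike-in scaling these were SLC25A13 (-0.15), SLC25A34 (-0.027), SLC25A39 (-0.12, and -0.15 at probe 2), SLC25A45 (-0.16), SLC25A6 probe 3 (-0.14) and SLC25A11 probe 2 (-0.094). With normexp they were UCP1 (0.0075) and SLC25A34 probe 2 (0.018), in the deposited table SLC25A37 (0.093), and with 1 pool left out SLC25A5 (-0.42 to 0.023), SLC25A11 probe 2 (-0.037 to 0.61) and SLC25A39 probe 2 (-0.23 to 0.70). The cause was not tested. Of the single-probe alternatives, 462 kept direction and side of the threshold, 53 lost the call, 17 gained one and 13 reversed. Low detection on LF2 and 2 pools a group limit what can be seen.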

Other observations

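Some probes described as carriers lay outside the naming rule. A probe at chr19:52597017-52597076, described as like the dicarboxylate carrier SLC25A10, read 2.11 and 2.08 on the HF arrays and 1.42 and 1.71 on the LF arrays, with a difference of -0.53 that did not pass (SE 0.164, adjusted p = 0.0657). It was well above background on all 4 arrays. The locus LOC616319, described as like the phosphate carrier SLC25A3, read 0.20, 0.50, 0.66 and 0.58 at its brightest probe, and its difference of 0.27 did not pass (SE 0.167, adjusted p = 0.278). A second tested probe of this locus, not detected on LF2, was at -0.48 (SE 0.274, adjusted p = 0.238).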
